A study of Mus musculus with 12 samples.

Results

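The 10 genes described here form the core of the mouse circadian clock: the activators Arntl (also called Bmal1) and Clock, the repressors Per1, Per2, Per3, Cry1 and Cry2, the nuclear receptors Nr1d1 and Nr1d2 (REV-ERBα and REV-ERBβ), and the output factor Dbp. They were chosen by name and found by matching Ensembl identifiers to symbols, 10 of the 54532 genes listed, and all 10 were among the 12871 genes tested. They were measured by bulk RNA-seq in bone marrow mesenchymal stem cells (MSCs) of C57BL/6 mice at 4 weeks of age, used at passage 3. Control cells came from Chd7fl/fl mice (labelled WT), and the other cells from Prx1-cre;Chd7fl/fl mice (labelled Chd7 KO), in which Cre recombinase, driven by a promoter active in early limb mesenchyme, removes exon 2 of Chd7, a chromatin remodeller. RNA was taken 5 days after induction, from 3 libraries in each of 4 groups, 12 in all. The osteogenic medium contained dexamethasone at 10 nM with β-glycerophosphate (10 mM) and ascorbic acid (50 µM), and the adipogenic medium contained dexamethasone at 1 µM with insulin (10 µg/ml) and isobutylmethylxanthine (0.5 µM), which raises cAMP. The hour at which cells were collected, and whether the groups were collected at the same hour, is not given in the sources used here. The question asked of each gene was whether activators and repressors differed between groups in the opposed way that successive clock phases would show.

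In the textbook clock, ARNTL and CLOCK bind as a pair to E-box sequences and switch on the Per and Cry genes, Nr1d1, Nr1d2 and Dbp. PER and CRY proteins then block the pair, and the REV-ERB receptors repress Arntl, so that Arntl RNA peaks when the RNA of Dbp and of the Nr1d genes is low. Cultured cells keep such rhythms one by one, and glucocorticoids and cAMP, both of which act directly on Per1, are commonly used to bring them into step. A level at a single time point cannot separate a shift in phase from a change in amplitude or in mean level.

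Levels are FPKM, fragments per kilobase of gene with sequencing depth divided out. The number of fragments on genes was 17496343 in the shallowest and 21099588 in the deepest library. limma was fitted to log2(FPKM + 1) in all 12 libraries, with Benjamini-Hochberg adjustment over the genes tested, and fold changes on this scale understate changes of genes with low values. No source used here says whether libraries of a group came from separate animals, so the p-values measure the spread between libraries, which may be technical. Chd7 itself lay at 2.64 to 2.77 FPKM in control and 2.03 to 2.35 FPKM in KO libraries in osteogenic medium, and at 1.81 to 2.26 FPKM in control and 2.03 to 2.48 FPKM in KO libraries in adipogenic medium (limma adjusted p = 0.160 and 0.428). It was therefore not lower in the adipogenic libraries labelled KO, and below KO means only that label. In osteogenic medium Chd7 was lower in KO libraries without passing, which is only a weak check of the labels. In adipogenic medium it gives no check of the genotype labels. If they were exchanged, each genotype difference given for that medium would turn its sign. Those here opposite to the osteogenic ones would then have the same sign. The interactions and the medium comparisons below rest on these labels too and would change as well. The label exchange itself was not tested, and reads by exon were not analysed. The cultures were not MSCs alone by their markers. The 12 macrophage markers summed to 5649 to 17793 FPKM per library, or 1804 to 3598 FPKM without Lyz2, the most abundant of them, against 1265 to 1893 FPKM for 10 stromal markers. Of the stromal markers Itgb1 was at 317 to 412 FPKM and Thy1 at most at 1.03 FPKM. Of the adipocyte markers Lpl was at 53.8 to 117 FPKM and Fabp4 at 12.7 to 39.2 FPKM. Adipoq had at most 15 fragments in any library, Plin1 at most 8, and Cidec and Lep at most 2. Control adipogenic library 2 stood apart, with a mean correlation with its group of 0.941 against 0.964 and 0.966 for the other two. Some of the values that rest on it are given with and without it.

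The difference between genotypes depended on the medium for all 10 genes, though for Cry1 this passed in only 9 of 20 other settings. Most of the 10 differed in opposite directions in the 2 media. In osteogenic medium KO libraries had less Arntl and Per1 and more Per2, Per3, Cry2, Nr1d1, Nr1d2 and Dbp than control libraries. In adipogenic medium KO libraries had more Arntl, Clock, Per1 and Cry1 and less Per2, Per3, Cry2, Nr1d2 and Dbp. At an adjusted p of 0.05, 8 of 10 clock genes passed in osteogenic medium, where 9.09% of all genes tested passed. Of these, 6 were higher and 2 lower in KO cells, against 4.94% and 4.15% of all genes. In adipogenic medium 9 of 10 passed, where 33.2% of all genes did, 4 of them higher and 5 lower, against 16.7% and 16.5% of all genes. The interaction of genotype and medium passed for 10 of 10, against 20.4% of all genes, with 4 positive and 6 negative, against 10.9% and 9.58%. With each library scaled to the same sum (TPM), the split of all genes called in adipogenic medium moved from 50.4% to 78.4% higher and that of the interaction from 53.1% to 75.4% positive, while the clock genes split 4 higher and 4 lower in adipogenic medium and 4 and 6 for the interaction. The genotype ranges of the 10 genes did not overlap in either medium, against 44.3% of all genes in osteogenic and 38.6% in adipogenic medium.

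**Figure D1:**
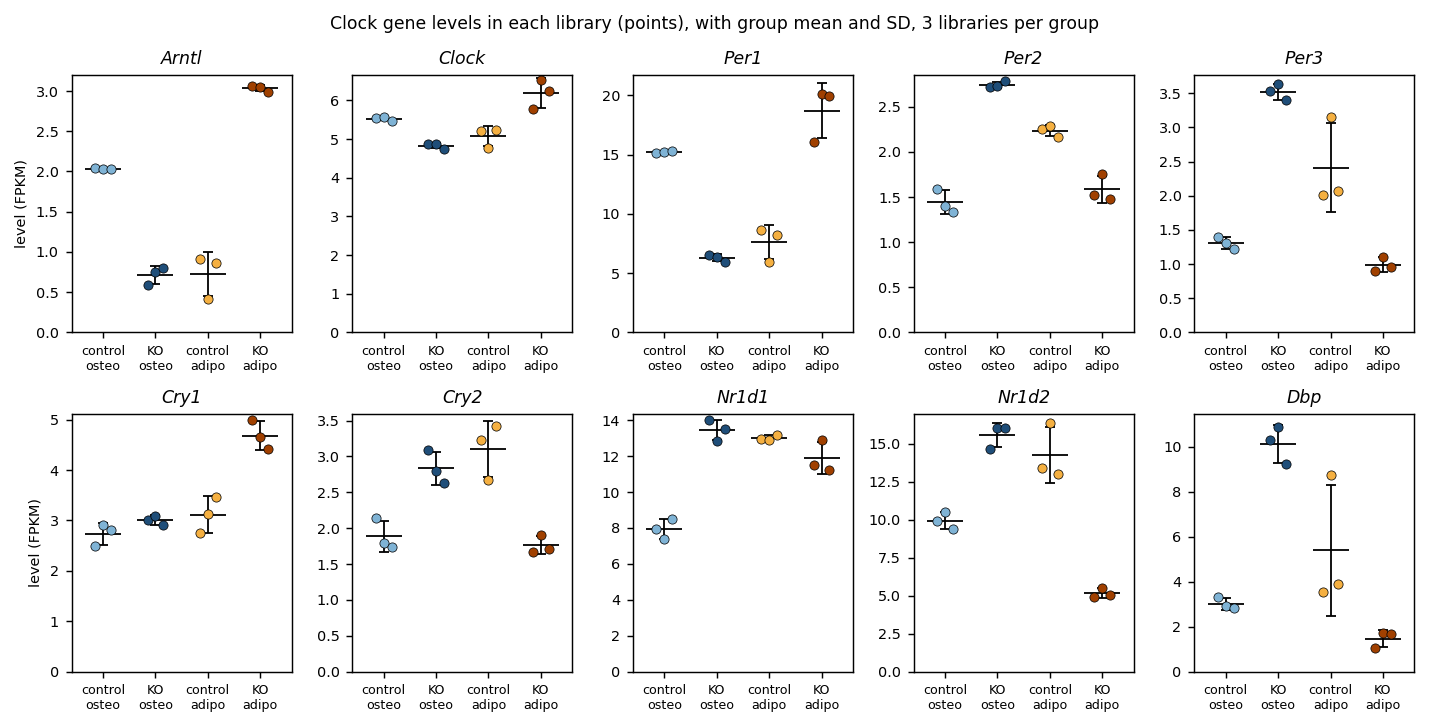
Level of each clock gene in FPKM (vertical axes, each from 0) in the 3 libraries of each group, with points for libraries, horizontal bars for group means and error bars for the SD. Arntl and Per1 are high in control osteogenic and KO adipogenic libraries and low in the other 2 groups, and Per2, Per3 and Nr1d2 run the other way. Dbp is highest in KO osteogenic and lowest in KO adipogenic libraries, with control adipogenic libraries 1 and 3 close to control osteogenic ones. Control adipogenic library 2 is far from its group for Dbp and Per3.

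Arntl, the activator whose RNA cycles in most tissues, showed the widest separation of the activators. Arntl (ENSMUSG00000055116) lies on the plus strand of GRCm38 at chr7:113207465-113314126. It was at 2.04, 2.03 and 2.03 FPKM in control and 0.585, 0.749 and 0.796 FPKM in KO osteogenic libraries, and at 0.914, 0.413 and 0.861 FPKM in control and 3.06, 3.05 and 2.99 FPKM in KO adipogenic libraries. The KO libraries were thus the low group in osteogenic medium and the high group in adipogenic medium, and within each medium the genotypes lay far apart. By group means Arntl was 2.87-fold lower in KO cells in osteogenic medium (log2 fold change -0.83 with a standard error of 0.108, limma adjusted p = 0.00154) and 4.16-fold higher in adipogenic medium (log2 fold change 1.24 with a standard error of 0.108, adjusted p = 3.84e-05). Without control adipogenic library 2 the latter was 1.10 (limma adjusted p = 1.58e-06). Arntl levels rested on 65 to 433 fragments per library.

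Clock encodes the histone acetyltransferase partner of ARNTL, and its RNA cycles little in most tissues. Clock (ENSMUSG00000029238, chr5:76209868-76304792, minus strand) had the narrowest relative range of the 10, at 5.55, 5.56 and 5.47 FPKM in control and 4.86, 4.87 and 4.75 FPKM in KO osteogenic libraries. In adipogenic medium it was at 5.22, 4.78 and 5.23 FPKM in control and 5.76, 6.54 and 6.25 FPKM in KO libraries. The KO libraries lay just below control in the one medium and just above it in the other, the same order as for Arntl. The difference passed in adipogenic medium (log2 fold change 0.24, limma adjusted p = 0.00542) but not in osteogenic medium (log2 fold change -0.16, adjusted p = 0.0750). Npas2, which can stand in for CLOCK, was at 0.0902 to 0.527 FPKM and was too low to be tested.

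Per1 did not move with the other Per genes. Per1 (ENSMUSG00000020893, chr11:69095217-69109960, plus strand) encodes a repressor of ARNTL and CLOCK that is also an immediate target of glucocorticoids and cAMP. It was at 15.1, 15.2 and 15.3 FPKM in control and 6.54, 6.34 and 5.96 FPKM in KO osteogenic libraries, and at 8.65, 5.95 and 8.22 FPKM in control and 16.1, 20.1 and 19.9 FPKM in KO adipogenic libraries. Control osteogenic and KO adipogenic libraries were the high groups, as for Arntl. Per1 was 2.42-fold lower in KO cells in osteogenic medium (log2 fold change -1.16 with a standard error of 0.119, limma adjusted p = 0.000398) and 2.46-fold higher in adipogenic medium (log2 fold change 1.20 with a standard error of 0.119, adjusted p = 7.45e-05). Without control adipogenic library 2 the latter was 1.06 (limma adjusted p = 6.40e-06).

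Per2 (ENSMUSG00000055866, chr1:91415982-91459324, minus strand), the period gene most needed for behavioural rhythms, was at 1.59, 1.40 and 1.33 FPKM in control and 2.72, 2.73 and 2.78 FPKM in KO osteogenic libraries. In adipogenic medium it was at 2.25, 2.28 and 2.17 FPKM in control and 1.52, 1.76 and 1.48 FPKM in KO libraries. Here the KO libraries were the high group in osteogenic medium and the low group in adipogenic medium, the reverse of Per1. Per2 was 1.90-fold higher in KO cells in osteogenic medium (log2 fold change 0.62 with a standard error of 0.0633, limma adjusted p = 0.000398) and 1.41-fold lower in adipogenic medium (log2 fold change -0.33 with a standard error of 0.0633, adjusted p = 0.00378). Per2 is also a glucocorticoid target in some tissues.

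Per3 (ENSMUSG00000028957, chr4:151003652-151044665, minus strand), whose RNA cycles widely in peripheral tissues although the gene is not essential for rhythms, went with Per2. It was at 1.40, 1.31 and 1.22 FPKM in control and 3.53, 3.63 and 3.40 FPKM in KO osteogenic libraries, and at 2.01, 3.16 and 2.07 FPKM in control and 0.898, 1.11 and 0.964 FPKM in KO adipogenic libraries. KO libraries were again high in osteogenic and low in adipogenic medium, and control adipogenic library 2 was above the rest of its group. Per3 was 2.68-fold higher in KO cells in osteogenic medium (log2 fold change 0.97 with a standard error of 0.113, limma adjusted p = 0.000801) and 2.43-fold lower in adipogenic medium (log2 fold change -0.76 with a standard error of 0.113, adjusted p = 0.000785). Without control adipogenic library 2 the latter was -0.61 (limma adjusted p = 5.43e-05).

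The contrast of Per1 with Per3 was visible within single libraries. The ratio of Per1 to Per3, both per length, was 10.8 to 12.5 in control and 1.75 to 1.85 in KO osteogenic libraries, and 4.31, 1.88 and 3.97 in control and 17.9 to 20.7 in KO adipogenic libraries. The low value of 1.88 is that of control adipogenic library 2. A ratio within a library does not depend on how libraries were scaled to each other, so these values show unequal changes of the Per genes whatever the scaling.

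The stretches upstream of the annotated start sites of Per1, Per3, Cry1 and Arntl are shown because these genes part company in the data: Per1 moved with Arntl, Per3 against it, and Cry1 differently from Cry2. Sequences are from RefSeq on GRCm38.p6, read 5′ to 3′ on the strand of the gene, with bases in annotated exons left out. Capitals mark the E-box CACGTG, bound by ARNTL with CLOCK, the D-box TTATGTAA, bound by DBP and TEF, and the CRE half-site TGACG, bound by the cAMP-responsive factor CREB. Per1 has 2 windows in the RefSeq table, both inside the span of the gene as annotated in GENCODE.
Per1, first window, chr11:69098699-69098947: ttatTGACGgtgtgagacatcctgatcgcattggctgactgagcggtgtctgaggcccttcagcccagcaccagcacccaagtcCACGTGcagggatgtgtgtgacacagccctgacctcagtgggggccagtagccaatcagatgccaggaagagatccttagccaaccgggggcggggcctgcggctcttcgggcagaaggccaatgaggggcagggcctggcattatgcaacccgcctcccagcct
Per1, second window, chr11:69099902-69100151: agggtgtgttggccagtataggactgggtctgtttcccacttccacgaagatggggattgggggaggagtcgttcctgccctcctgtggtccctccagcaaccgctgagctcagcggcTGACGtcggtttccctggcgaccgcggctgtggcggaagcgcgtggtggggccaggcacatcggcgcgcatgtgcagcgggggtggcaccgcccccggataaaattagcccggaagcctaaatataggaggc
Per3, chr4:151044666-151044915, minus strand: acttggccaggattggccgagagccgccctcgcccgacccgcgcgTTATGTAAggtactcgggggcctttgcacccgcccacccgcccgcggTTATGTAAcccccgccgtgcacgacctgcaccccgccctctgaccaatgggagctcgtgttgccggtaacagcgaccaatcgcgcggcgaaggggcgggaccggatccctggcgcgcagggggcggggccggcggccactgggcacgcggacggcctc
Cry1, chr10:85185065-85185304, minus strand: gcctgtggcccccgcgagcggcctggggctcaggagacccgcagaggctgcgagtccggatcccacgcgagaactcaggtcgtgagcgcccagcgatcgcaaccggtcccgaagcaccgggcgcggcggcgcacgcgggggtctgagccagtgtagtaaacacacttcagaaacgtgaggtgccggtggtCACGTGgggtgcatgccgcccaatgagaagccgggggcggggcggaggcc
Arntl, chr7:113207215-113207464: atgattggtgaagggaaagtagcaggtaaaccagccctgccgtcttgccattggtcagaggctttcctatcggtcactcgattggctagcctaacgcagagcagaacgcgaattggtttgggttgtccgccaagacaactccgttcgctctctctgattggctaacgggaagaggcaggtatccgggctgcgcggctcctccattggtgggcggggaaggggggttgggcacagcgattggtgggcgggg

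Counted from the start site, the E-box of the first Per1 window began at -166 and its CRE half-site at -246, and the second window had a CRE half-site at -132. The Per3 window had the D-box at -205 and at -158, and the Cry1 window had an E-box at -60. Per3 was the only clock gene with a D-box among the 13 windows of 9 members searched on both strands, and 0.817% of the 32817 mouse windows of the same length held one. An E-box stood in 2 of the 13 windows against 6.02% of all windows, and a CRE half-site in 4 of 13 against 17.7%. Also searched were the E'-box CACGTT (3 of 13 windows, 3.85% of all), the half-site AGGTCA bound by ROR and REV-ERB receptors (3 of 13, 14.0% of all) and the glucocorticoid receptor half-site AGAACA (0 of 13, 16.1% of all). The printed matches do not overlap each other. A match shows only that the letters are present, the lack of one says only that they are not in this window, and the motifs were chosen with the levels known.

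The cryptochromes, which carry most of the repression of ARNTL and CLOCK, did not move as a pair. Cry1 (ENSMUSG00000020038, chr10:85131700-85185064, minus strand) was at 2.49, 2.90 and 2.81 FPKM in control and 3.02, 3.09 and 2.91 FPKM in KO osteogenic libraries, and at 2.75, 3.12 and 3.47 FPKM in control and 4.99, 4.65 and 4.41 FPKM in KO adipogenic libraries. Its control and KO libraries nearly touched in osteogenic medium and were well apart in adipogenic medium, with KO higher. Cry1 was 1.50-fold higher in KO cells in adipogenic medium (log2 fold change 0.47 with a standard error of 0.0737, limma adjusted p = 0.00114), while in osteogenic medium the log2 fold change was 0.10 (standard error 0.0737, adjusted p = 0.464). Its interaction of 0.37 passed narrowly (limma adjusted p = 0.0336, and 0.0175 to 0.0933 over 20 other settings, of which 9 passed). It no longer passed without control osteogenic library 2 or 3, any of the KO osteogenic libraries, control adipogenic library 1, or KO adipogenic library 1 or 2, with adjusted p of 0.0588 to 0.0797.

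Cry2 (ENSMUSG00000068742, chr2:92403646-92434043, minus strand) followed Per2 and Per3 instead. It was at 2.14, 1.79 and 1.74 FPKM in control and 3.08, 2.79 and 2.62 FPKM in KO osteogenic libraries, and at 3.23, 2.67 and 3.43 FPKM in control and 1.67, 1.91 and 1.72 FPKM in KO adipogenic libraries. KO libraries were the high group in osteogenic medium and the low group in adipogenic medium. Cry2 was 1.50-fold higher in KO cells in osteogenic medium (log2 fold change 0.41 with a standard error of 0.0873, limma adjusted p = 0.0176) and 1.76-fold lower in adipogenic medium (log2 fold change -0.57 with a standard error of 0.0873, adjusted p = 0.000986). The osteogenic call is the less firm, passing in 10 of 15 other settings with adjusted p up to 0.0788, including fits without control library 2 (0.0738) or 3 (0.0729) and without KO library 1 (0.0788) or 2 (0.0535).

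Nr1d1 and Nr1d2 encode haem-binding receptors that repress Arntl and are themselves switched on through E-boxes. Nr1d2 (ENSMUSG00000021775, chr14:18204054-18239127, minus strand) was at 9.93, 10.5 and 9.37 FPKM in control and 14.7, 16.0 and 16.0 FPKM in KO osteogenic libraries, and at 13.4, 16.4 and 13.0 FPKM in control and 4.90, 5.52 and 5.07 FPKM in KO adipogenic libraries. The KO adipogenic libraries stood well below all the others. Nr1d2 was 1.57-fold higher in KO cells in osteogenic medium (log2 fold change 0.60 with a standard error of 0.0827, limma adjusted p = 0.00202) and 2.76-fold lower in adipogenic medium (log2 fold change -1.30 with a standard error of 0.0827, adjusted p = 5.01e-06), the smallest adjusted p of any clock gene in this comparison.

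Nr1d1 did not share that fall. Nr1d1 (ENSMUSG00000020889, chr11:98767932-98775333, minus strand) was at 7.92, 7.38 and 8.48 FPKM in control and 14.0, 12.9 and 13.5 FPKM in KO osteogenic libraries, and at 13.0, 12.9 and 13.2 FPKM in control and 11.5, 12.9 and 11.2 FPKM in KO adipogenic libraries. The control osteogenic libraries were the low group, and the other 3 groups lay close together. Nr1d1 was 1.70-fold higher in KO cells in osteogenic medium (log2 fold change 0.70 with a standard error of 0.0612, limma adjusted p = 0.000155), whereas in adipogenic medium its log2 fold change was -0.13 (standard error 0.0612, adjusted p = 0.137) and turned to 0.048 under TPM. Its exons overlap those of Thra on the other strand by 263 bases, 8.55% of its exonic length, and without strand, reads there cannot be told apart. Thra had log2 fold changes of 0.02 and -0.08 in osteogenic and adipogenic medium, which did not pass (limma adjusted p = 0.931 and 0.575).

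Dbp, an output transcription factor driven by E-boxes and among the most strongly cycling mouse transcripts, had the widest range of the 10. Dbp (ENSMUSG00000059824, chr7:45705088-45710203, plus strand) was at 3.32, 2.92 and 2.82 FPKM in control and 10.3, 10.9 and 9.21 FPKM in KO osteogenic libraries, and at 3.54, 8.73 and 3.90 FPKM in control and 1.03, 1.70 and 1.65 FPKM in KO adipogenic libraries. KO libraries were the high group in osteogenic medium and the low group in adipogenic medium, and control adipogenic library 2 lay near the KO osteogenic level. Dbp was 3.35-fold higher in KO cells in osteogenic medium (log2 fold change 1.47 with a standard error of 0.244, limma adjusted p = 0.00505) and 3.69-fold lower in adipogenic medium (log2 fold change -1.30 with a standard error of 0.244, adjusted p = 0.00315). Without control adipogenic library 2 the control mean fell from 5.39 to 3.72 FPKM and the log2 fold change was -0.95 (limma adjusted p = 0.000146). Dbp shares 539 exonic bases, 18.0% of its length, with Sphk2 on the other strand, which had a log2 fold change of -0.09 in osteogenic (adjusted p = 0.714) and -0.39 in adipogenic medium (adjusted p = 0.0308). How much of the Dbp value came from Sphk2 reads was not tested.

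**Figure D2:**
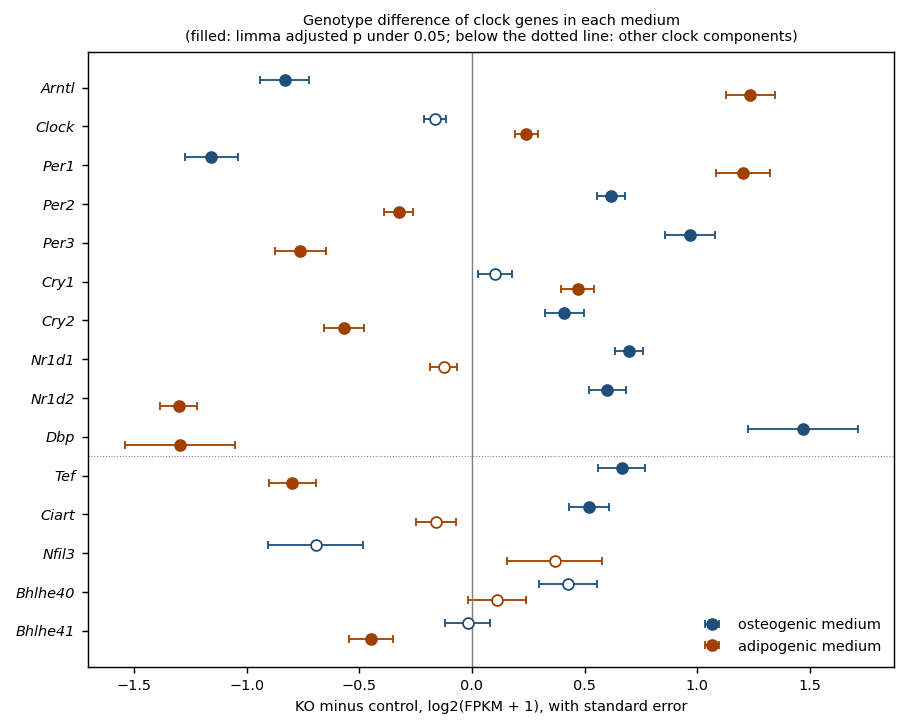
Difference of KO from control in log2(FPKM + 1) (horizontal axis) with its standard error, in osteogenic (blue) and adipogenic (brown) medium, for the 10 clock genes and 5 other clock components, with filled points where the limma adjusted p is under 0.05. For Arntl, Per1, Per2, Per3, Cry2, Nr1d2 and Dbp both points are filled and lie on opposite sides of 0.

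In all, 7 of the 10 genes passed in both media, and for all 7 the direction was opposite in the 2 media. The genotype comparisons in the 2 media share no libraries. Over all genes tested 643 passed in both media, and 299, or 2.32% of the genes tested, passed in opposite directions. The difference between the media was itself tested by the interaction, which was largest for Dbp (-2.77, standard error 0.345, limma adjusted p = 0.000566), Per1 (2.36, standard error 0.168, adjusted p = 1.88e-05), Arntl (2.07, standard error 0.153, adjusted p = 2.39e-05) and Nr1d2 (-1.90, standard error 0.117, adjusted p = 7.74e-06). It was smallest for Cry1, above, and for Clock (0.41, standard error 0.0714, adjusted p = 0.00368).

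The opposition of Dbp to Arntl can be read within each library, although not every target of ARNTL shared it, since Per1 and, in adipogenic medium, Cry1 moved with Arntl. The ratio of Dbp to Arntl, both per length, was 1.62, 1.44 and 1.39 in control and 17.6, 14.5 and 11.6 in KO osteogenic libraries. It was 3.87, 21.2 and 4.52 in control and 0.337, 0.559 and 0.552 in KO adipogenic libraries. The lowest and the highest group were thus both KO, in different media, and the 4 groups formed an order from KO adipogenic through control osteogenic and control adipogenic to KO osteogenic, in which control adipogenic library 2 exceeded every KO osteogenic library. That library was also the lowest of all 12 in Arntl and Per1.

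**Figure D3:**
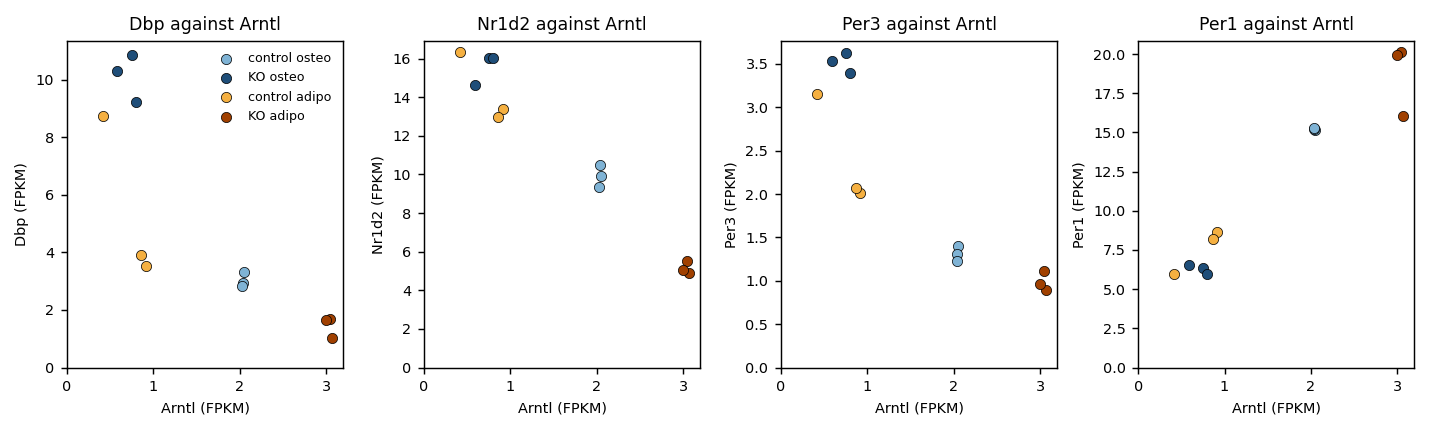
Level of Dbp, Nr1d2, Per3 and Per1 (vertical axes, FPKM) against that of Arntl (horizontal axes, FPKM), with 1 point per library coloured by group. Dbp, Nr1d2 and Per3 are lowest in the KO adipogenic libraries, where Arntl is about 3 FPKM, and Per1 is highest there.

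The media were also compared within each genotype. The medium comparisons use the same libraries as those above and are not independent of them. They too rest on the adipogenic genotype labels, of which Chd7 gave no check. In control cells 7 of 10 clock genes passed, where 22.8% of all genes did, 5 of them higher and 2 lower in adipogenic medium, against 10.5% and 12.3% of all genes. Per1 (log2 fold change -0.93, limma adjusted p = 0.00101) and Arntl (-0.82, adjusted p = 0.00115) were lower, and Nr1d1 (0.65, adjusted p = 0.000213), Per3 (0.55, adjusted p = 0.00943), Cry2 (0.51, adjusted p = 0.00428), Nr1d2 (0.47, adjusted p = 0.00456) and Per2 (0.41, adjusted p = 0.00260) were higher. Dbp had a log2 fold change of 0.58 that did not pass (adjusted p = 0.110) and was 0.23 without control adipogenic library 2. Without that library the log2 fold change was -0.78 for Per1, -0.69 for Arntl, 0.66 for Nr1d1 and 0.39 for Per3. It was 0.59 for Cry2, 0.38 for Nr1d2 and 0.40 for Per2. In KO cells 9 of 10 passed, where 27.9% of all genes did, 4 of them higher and 5 lower in adipogenic medium, against 13.9% and 14.0% of all genes. Per1 (1.43, adjusted p = 2.64e-05), Arntl (1.24, adjusted p = 3.69e-05), Cry1 (0.50, adjusted p = 0.000847) and Clock (0.30, adjusted p = 0.00188) were higher, and Dbp was 6.92-fold lower by group means (log2 fold change -2.18, adjusted p = 0.000181). Nr1d1 did not pass (-0.17, adjusted p = 0.0650) except when KO adipogenic library 2 was left out (-0.23, adjusted p = 0.0257). Under TPM the split of all genes called moved from 46.1% to 30.6% higher in control cells and from 49.7% to 65.5% higher in KO cells, while the clock genes split 3 higher and 2 lower in control cells and 4 and 5 in KO cells.

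The order of the levels changed with the group as well. Per1 was the most abundant of the 10 per length in control osteogenic and KO adipogenic libraries, with means of 15.2 and 18.7 FPKM, and its range was apart from that of the next gene in both. In KO osteogenic libraries Nr1d2 led at 15.6 FPKM, apart from Nr1d1 at 13.5 FPKM, and in control adipogenic libraries Nr1d2 and Nr1d1, at 14.3 and 13.0 FPKM, overlapped. Arntl was the least abundant in those last 2 groups, at 0.710 and 0.729 FPKM, and ranked above Cry2, Per2 and Per3 in the other two, its range overlapping that of Cry2 in control osteogenic libraries. Dbp ranked just below Nr1d1 in KO osteogenic libraries, at 10.1 FPKM, and next to last in KO adipogenic libraries at 1.46 FPKM, where its range overlapped those of Per2 and Per3.

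Other clock components were sorted by a list of 20 genes, of which 15 passed the filter on low levels. In osteogenic medium 2 were higher in KO cells and 1 lower, where 4.94% and 4.15% of all genes were. In adipogenic medium 0 were higher and 4 lower, where 16.7% and 16.5% of all genes were, so that the 4 of 15 passing there are a smaller share than the 33.2% of all genes. The list's median log2 fold change was 0.07 in osteogenic and -0.09 in adipogenic medium, against -0.01 and -0.01 over all genes tested. Tef, which like Dbp encodes a PAR bZIP factor that binds D-boxes, went with Dbp. It was at 9.99, 9.84 and 9.20 FPKM in control and 15.6, 16.0 and 16.1 FPKM in KO osteogenic libraries, and at 11.3, 14.8 and 10.9 FPKM in control and 5.79, 7.07 and 7.02 FPKM in KO adipogenic libraries. Tef was higher in KO cells in osteogenic medium (log2 fold change 0.66, limma adjusted p = 0.00367) and lower in adipogenic medium (-0.80, adjusted p = 0.000381).

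Ciart, a repressor of ARNTL and CLOCK, was higher in KO cells in osteogenic medium (log2 fold change 0.52, limma adjusted p = 0.00570). Nfil3, which encodes the repressor that competes with DBP and TEF for D-boxes, was at 6.18, 6.84 and 6.26 FPKM in control and 3.38, 3.55 and 3.85 FPKM in KO osteogenic libraries, without passing (log2 fold change -0.69, limma adjusted p = 0.0703). Its interaction passed (1.06, adjusted p = 0.0313), with the sign opposite to that of Tef (-1.46, adjusted p = 0.000147). Adipogenic levels of Nfil3 were 7.90, 3.91 and 8.77 FPKM in control and 8.44, 7.85 and 9.97 FPKM in KO libraries. The low control value is that of control adipogenic library 2, and the interaction of Nfil3 without that library is not given here. In adipogenic medium Timeless (-0.52, adjusted p = 0.00446), which also serves DNA replication, Bhlhe41, an E-box repressor (-0.45, adjusted p = 0.00706), and Nono, a partner of PER proteins (-0.15, adjusted p = 0.0139), were lower. Among 5 genes often coupled to the clock, Tsc22d3, also a glucocorticoid target, was lower in KO cells in osteogenic medium (-1.43, adjusted p = 0.000880) and higher in adipogenic medium (2.50, adjusted p = 7.32e-06), Tspan4 was higher in osteogenic medium (0.26, adjusted p = 0.0307), and Wee1, Usp2 and Nampt passed in neither.

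**Figure D4:**
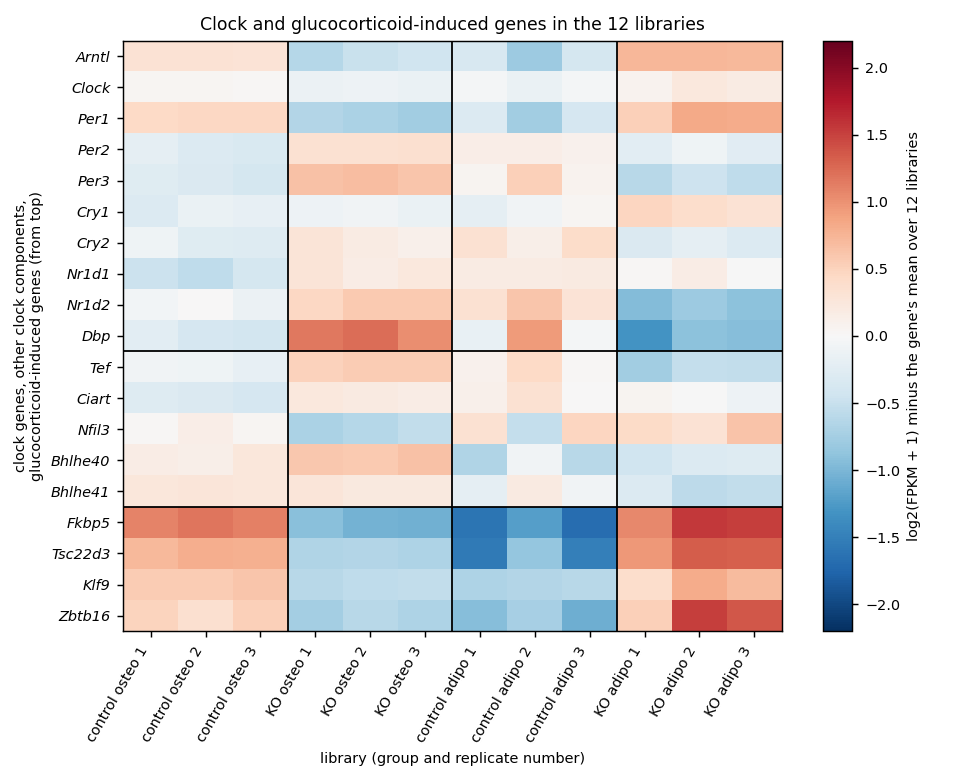
Colour shows log2(FPKM + 1) minus the mean of each gene over the 12 libraries (red above, blue below), for the 10 clock genes, 5 other clock components and 4 glucocorticoid-induced genes (rows) in each library (columns). The rows of Fkbp5, Tsc22d3, Klf9 and Zbtb16 are red in the same 2 groups as those of Per1 and Arntl (control osteogenic and KO adipogenic), while Dbp, Tef, Per3 and Nr1d2 show the reverse in most libraries.

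Several glucocorticoid-induced genes had the direction of Per1 in both media. Of 13 such genes other than Per1, 12 were tested. In osteogenic medium 0 were higher and 5 lower in KO cells (4.94% and 4.15% of all genes), and 7 did not pass. In adipogenic medium 11 were higher and 0 lower (16.7% and 16.5% of all genes). Their median log2 fold change was -0.28 in osteogenic and 1.00 in adipogenic medium, against -0.01 in both over all genes tested. Fkbp5, a chaperone of the glucocorticoid receptor, was at 30.6, 32.6 and 31.3 FPKM in control and 6.90, 6.29 and 6.19 FPKM in KO osteogenic libraries, and at 3.91, 5.46 and 3.69 FPKM in control and 29.9, 42.8 and 41.9 FPKM in KO adipogenic libraries. Both high groups lay well above both low groups. Klf9, a zinc finger factor, was at 17.8, 17.8 and 18.5 FPKM in control and 7.39, 7.62 and 7.79 FPKM in KO osteogenic libraries, and at 6.97, 7.12 and 7.36 FPKM in control and 15.7, 21.5 and 19.5 FPKM in KO adipogenic libraries. Fkbp5 fell by 2.13 on the log2 scale in KO cells in osteogenic medium (limma adjusted p = 3.84e-05) and rose by 2.87 in adipogenic medium (adjusted p = 1.16e-06), and Klf9 fell by 1.15 (adjusted p = 8.52e-05) and rose by 1.28. Nr3c1, the receptor itself, did not follow, with a log2 fold change of -0.01 in osteogenic and of -0.32 in adipogenic medium (adjusted p = 0.00217). The part of glucocorticoid signalling in the levels of Per1 and of the other clock genes was not tested.

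Of 12 cAMP-induced genes listed, 7 were tested. In KO cells 0 were higher and 1 lower in osteogenic medium (Atf3, log2 fold change -0.48, limma adjusted p = 0.0282) and 0 were higher and 2 lower in adipogenic medium (Atf3, -1.07, adjusted p = 0.000124, and Crem, -0.46, adjusted p = 0.0103). These counts lie near the shares of all genes passing, 9.09% and 33.2%, and are no result about the list.

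Markers of other cells also differed between the groups. The summed macrophage markers were at 11637 to 12082 FPKM in control and 13404 to 13668 FPKM in KO osteogenic libraries, an order that turned without Lyz2 (2680 to 2782 and 2348 to 2419 FPKM). There 0 of 12 were higher and 1 lower in KO cells, where 4.94% and 4.15% of all genes were. In adipogenic medium the sums were 17476, 7933 and 17793 FPKM in control and 5649 to 7065 FPKM in KO libraries, and 9 of 12 were lower, where 16.5% of all genes were. The sum was low in control adipogenic library 2, the library with more Dbp and Per3 and less Arntl than the rest of its group. Its markers did not move together. Cd68 was at 861 FPKM there against 517 and 491 FPKM in libraries 1 and 3, and Mrc1 at 107 against 36.8 and 35.7 FPKM. Laptm5 was at 257 against 239 and 209 FPKM, and the other listed macrophage markers were lower there, Lyz2 at 5456 against 13878 and 14411 FPKM. The endothelial markers, low throughout, were higher in KO cells for 3 of 5 tested in each medium, with 0 lower. They summed to 6.38 to 6.75 FPKM in control and 11.4 to 12.0 FPKM in KO osteogenic libraries, and to 5.15 to 6.03 FPKM in control and 8.55 to 10.1 FPKM in KO adipogenic libraries. The groups did not overlap in either medium. Of 9 stromal markers tested, 4 were higher and 0 lower in KO cells in osteogenic medium and 4 higher and 1 lower in adipogenic medium. Of 6 osteoblast markers 1 was higher and 1 lower in osteogenic medium and 4 were higher and 0 lower in adipogenic medium. Beside the endothelial, stromal and osteoblast counts, 4.94% of all genes were higher and 4.15% lower in osteogenic medium. In adipogenic medium these shares were 16.7% and 16.5%. The osteoblast counts in osteogenic medium are too small to be a result about the list. Both adipocyte markers tested, Lpl and Fabp4, were lower in KO cells in osteogenic medium and higher in adipogenic medium. The other adipocyte markers listed, Adipoq, Plin1, Cidec and Lep, were too low to be tested, so nothing is shown for them. Proliferation markers summed to 117, 238 and 117 FPKM in the control and 100 to 112 FPKM in the KO adipogenic libraries, and to 179 to 200 and 190 to 193 FPKM in the osteogenic ones. In bulk RNA, fewer cells of a type cannot be told apart from less RNA per cell, and the part of cell makeup in the clock gene levels was not tested.

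The genes whose course over the 12 libraries lay closest to a clock gene were found by the mean absolute difference of log2(FPKM + 1), each gene centred on its own mean. For Per1, with a range of 1.61 on this scale, they were Gm807 (0.111), Klf9 (0.151) and Serinc3 (0.180), of which Klf9 is on the glucocorticoid list. For Arntl, with a range of 1.52, they were Adam12 (0.113), Sphk1 (0.133) and Wnk1 (0.145). For Nr1d1, with a range of 0.84, they were Hoxa11 (0.0930), Shox2 (0.0957) and Me1 (0.105). The nearest to Dbp, whose range was 2.55, were farther away, Il21r (0.219), Clec7a (0.237) and Chst1 (0.271). Likeness here is over 12 libraries in 4 groups and says nothing of shared function.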

How the data were processed

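The authors deposited 1 table of FPKM, with a column per library. According to the submitters' processing notes, Bowtie 0.12.2 and the build mm9 were used, while the paper's reporting summary also lists HISAT2 and Ballgown. The kit was NEBNext Ultra and the sequencer a HiSeq 2500. The annotation, the use of strand and any filter are not given in the sources used here. Gene identifiers were looked up in GENCODE M21 (GRCm38), which gave names, lengths and coordinates, and with its exonic lengths 98.2% to 98.4% of the values under 30 fragments came out as whole fragments, to within 0.02 fragments. Fragment counts recovered in this way cover counting error only, since copies made by PCR are not independent molecules.

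Genes with at least 1 FPKM in at least 3 libraries were tested on log2(FPKM + 1) by limma 3.58.1 in R 4.3.3, allowing a mean-variance trend, with 1 mean for each of the 4 groups taken from the labels, and Benjamini-Hochberg adjustment at 0.05. The contrasts were genotype in each medium, their interaction, and medium in each genotype. Tables and figures were made in Python 3.11.15 with pandas 2.3.3, numpy 2.4.6 and matplotlib 3.10.9. The procedure was tested on simulated data. The genes named are the 10 clock genes, Chd7, genes whose exons overlap theirs, from each list those that passed or the 4 that changed most, and the 3 genes closest to Per1, Dbp, Nr1d1 and Arntl. Some further list members are named as values after these were seen. A list member that passed is not reported here. The clock genes, lists and motifs were chosen with earlier results of these data known. Promoter sequences are RefSeq windows of 250 bases before each start site, of which Per2 had no entry. Results were recomputed with a pseudocount of 0.1, without the filter, with TPM and median ratio scaling, no trend, only the libraries compared, limma voom on recovered fragments, the replicate number as a block, and each library left out in turn. A block within each medium was added after seeing the data.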

Additional observations from a re-analysis of the deposited data

Results flagged for a closer look

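For all 10 clock genes the genotype difference itself differed between the media, by the limma interaction term over the 12 libraries. This rests on the adipogenic genotype labels, of which Chd7 gave no check. The interaction, the KO minus control difference in adipogenic medium less that in osteogenic medium on the log2(FPKM + 1) scale, was positive for Per1 (2.36), Arntl (2.07), Clock (0.41) and Cry1 (0.37) and negative for Dbp (-2.77), Nr1d2 (-1.90), Per3 (-1.73), Cry2 (-0.98), Per2 (-0.94) and Nr1d1 (-0.82). The adjusted p in limma was between 7.74e-06, for Nr1d2, and 0.0336, for Cry1. That of Cry1 passed in only 9 of 20 other settings. For 9 of the 10 genes the differences in the 2 media had opposite signs, Cry1 being the exception. Over all genes tested, 6232 of 12871 had opposite signs. The 9 include Nr1d1, whose difference in adipogenic medium did not pass and turned its sign under TPM. Without control adipogenic library 2 the interaction was 1.93 for Arntl, 2.21 for Per1, -1.58 for Per3 and -2.42 for Dbp, all with limma adjusted p under 0.05.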

How the results depend on the processing

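Of 780 alternative values for the single clock genes, 754 kept their direction and their side of the threshold. Another 23 no longer passed, 2 passed that had not, and 1 turned its direction, Nr1d1 in adipogenic medium at 0.048 under TPM scaling. TPM moved the median of all genes there by 0.15, that of the interaction by 0.16, and that of medium in control cells by -0.11. Median ratio scaling could hardly change a value, since its factor was 1.0010 to 1.0012 in every library. Fits without the filter, without the trend, with only the libraries compared or with a block kept the main log2 fold changes. Their direction could not turn, so they bear only on the threshold. The values that no longer passed were 11 for the interaction of Cry1, 5 for Cry2 in osteogenic medium, 5 for the medium comparison in control cells, and Per2 (TPM) and Clock (only the libraries compared) in adipogenic medium. The number of the 10 genes passing moved by over 1.5 times only for medium in control cells, from 7 to 4, when only those 6 libraries were fitted.

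Counts over all genes moved more. The osteogenic count of 1170 was 526 under TPM, 3418 with only the libraries compared, 744 with the block within each medium, and 532 to 670 with 1 library left out. The adipogenic count of 4276 was 1671 with only the libraries compared and 2791 to 6569 with 1 left out. The interaction count of 2630 was 1798 to 5434, and the count of 2935 for medium in control cells was 490 with only the libraries compared and 1361 to 6156 with 1 left out. The highest of these came without control adipogenic library 2, where 9, 10 and 7 clock genes passed.

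Replicate numbers did not pair the libraries. Same-numbered control and KO libraries deviated together with r of -0.04, 0.06 and -0.03 in osteogenic and 0.47, 0.40 and -0.29 in adipogenic medium. Adipogenic control library 1 had r of -0.32 and -0.33 with KO libraries 2 and 3. Control library 2 had -0.55 with KO library 1 and 0.37 with 3, and control library 3 had 0.45 with 1 and -0.34 with 2. Control libraries 1 and 3 thus deviated with KO library 1, and control library 2 with KO libraries 2 and 3. The source of this split was not tested. With the replicate block the clock gene counts were 8, 9, 9, 7 and 9, against 8, 9, 10, 7 and 9 without it, for genotype in osteogenic and adipogenic medium, interaction, and medium in control and KO cells. The counts over all genes with this replicate block were 1018, 4167, 2473, 2907 and 3471.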
